A study of Mus musculus with 48 samples.

Results

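The frontal cortex of Cyfip2+/- mice was compared with that of WT mice at postnatal week (PWK) 14, which used 8 of the 48 libraries of the series. All of the genes with sufficient signal in these 8 libraries were described, one by one and in groups of known function. Cyfip2+/- mice (HT) carry 1 inactivated allele of Cyfip2, and the WT mice were their littermates, both on the C57BL/6N background. Frontal cortex was dissected from both hemispheres of 4 Cyfip2+/- mice and 4 WT mice, and each library came from 1 mouse. The hippocampus of mice with the same labels, and the cortex of other mice at PWK 7 and 1, served only to show where the cortex at PWK 14 differed. The mice received no treatment. Both sexes were used in the study as a whole, and the labels give no sex. Y-linked genes were detected in all 8 libraries with summed normalized counts between 3462 and 4463, so the 8 mice compared here were male by this measure.

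CYFIP2 is a subunit of the WAVE regulatory complex, in which a CYFIP, an NCKAP, an ABI, a WASF (WAVE) and BRK1 protein are held together. Binding of active Rac to the CYFIP subunit releases the WAVE subunit, which then activates the Arp2/3 complex to build branched actin filaments, the main skeleton of dendritic spines. CYFIP proteins also bind FMRP, an RNA-binding protein that represses translation, and variants of CYFIP2 cause a developmental and epileptic encephalopathy.

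Values are normalized counts per gene, made comparable between libraries by the authors. They summed to 31.5 to 32.8 M (M, mega) per library. From the spacing of the low values, the depth was estimated at 27.3 to 35.8 M read pairs per library. The deepest library was that of Cyfip2+/- mouse 2, and the medians of both genotypes were close, at 29.0 M (Cyfip2+/-) and 29.3 M (WT). An exact permutation test of the difference between the mean depths gave a two-sided p of 0.714. Log2 values of pairs of libraries, of the same or of different genotype, correlated across genes with r from 0.986 to 0.989.

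Markers of cortical neurons were abundant in all libraries, and the 8 genes of excitatory neurons summed to 205424 to 236846 normalized counts. A few libraries stood apart by markers of neighbouring tissue. WT mouse 1 had a sum of 29034 over the genes of the choroid plexus, the tissue that secretes cerebrospinal fluid, against 150 to 1695 in the other 7 libraries. Genes of striatal neurons summed to 15442 in Cyfip2+/- mouse 2 and to 11285 in Cyfip2+/- mouse 4, against 6647 to 9906 in the other 6. Genes of oligodendrocytes, the myelin-forming cells, were highest in Cyfip2+/- mice 2 and 1, at 169548 and 159964, against 93187 to 138408 in the other 6. Genes of blood cells were highest in Cyfip2+/- mouse 1, at 22521 against 7911 to 15161. For several groups described below, values without 1 of these libraries are given as well.

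**Figure D1:**
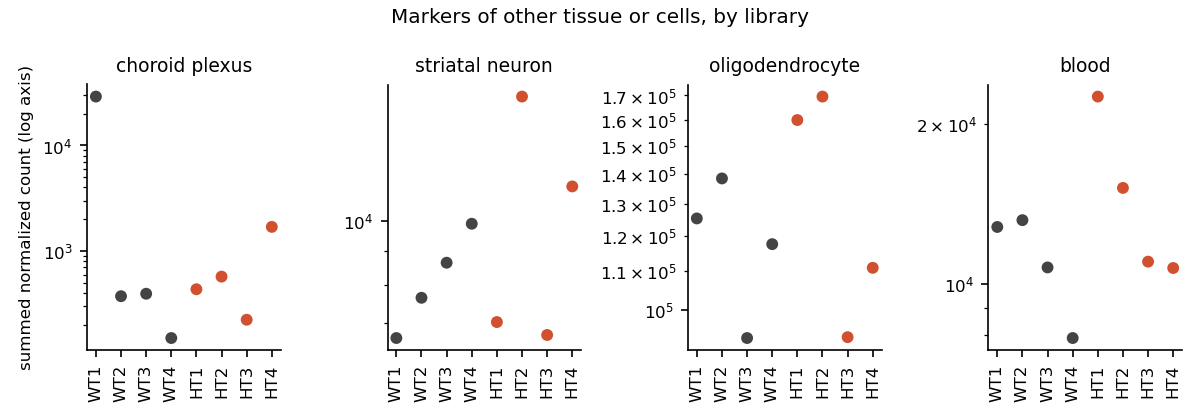
Summed normalized counts (log axis) of the marker genes of choroid plexus, striatal neurons, oligodendrocytes and blood in each of the 8 libraries, 4 WT and 4 Cyfip2+/- (HT). WT mouse 1 stands alone in choroid plexus genes at 29034, and Cyfip2+/- mouse 2 is highest in striatal and oligodendrocyte genes.

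Cyfip2 (chr11:46193850-46312859, minus strand, GRCm38) was the only gene of 16914 tested that passed an adjusted p of 0.05, which is 0.00591% of the genes. It had 21573, 20483, 23343 and 22110 normalized counts in the 4 Cyfip2+/- mice and 33310, 34224, 30472 and 33587 in the 4 WT mice. All 4 Cyfip2+/- mice were below all 4 WT mice, and the means were 21877 ± 1189 and 32898 ± 1662 (SD, n = 4 each). Cyfip2 RNA fell to 66.5% of the WT mean, a log2 fold change of -0.59 (SE 0.05, limma adjusted p = 0.00332). The exact permutation test over the 70 assignments of genotype to the 8 mice gave a two-sided p of 0.0286, the smallest it can give. Without WT mouse 1 and Cyfip2+/- mouse 2, the libraries that stood apart most, the log2 fold change of Cyfip2 was -0.55 and its limma adjusted p 0.0520.

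Outside Cyfip2, differences between the genotypes were small, and the smallest adjusted p of any other gene was 0.532. The median log2 fold change over all genes tested was -0.01, and its median size was 0.08. For 87.8% of the genes the fold change lay within 1.2-fold in either direction. At an unadjusted p below 0.05 there were 1193 genes, where the threshold alone would give 845.7. Of these, 493 genes (2.91% of those tested) had higher and 700 (4.14%) had lower RNA in Cyfip2+/- mice. The lean to the lower side depended on the scaling. There were 563 higher and 632 lower genes after median-of-ratios rescaling, and 577 higher and 598 lower after quantile normalization. In 293 genes (1.73%) all 4 Cyfip2+/- mice lay above all 4 WT mice, and in 408 (2.41%) all 4 lay below. These percentages are the background against which the counts in each group of genes below are given. In those counts, higher and lower mean at an unadjusted p below 0.05 in limma. Because only Cyfip2 passed the adjusted threshold, the other genes are described as higher or lower, with their values, and none of them is counted as a differentially expressed gene (DEG). The p-values measure the spread between these 8 mice.

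**Figure D2:**
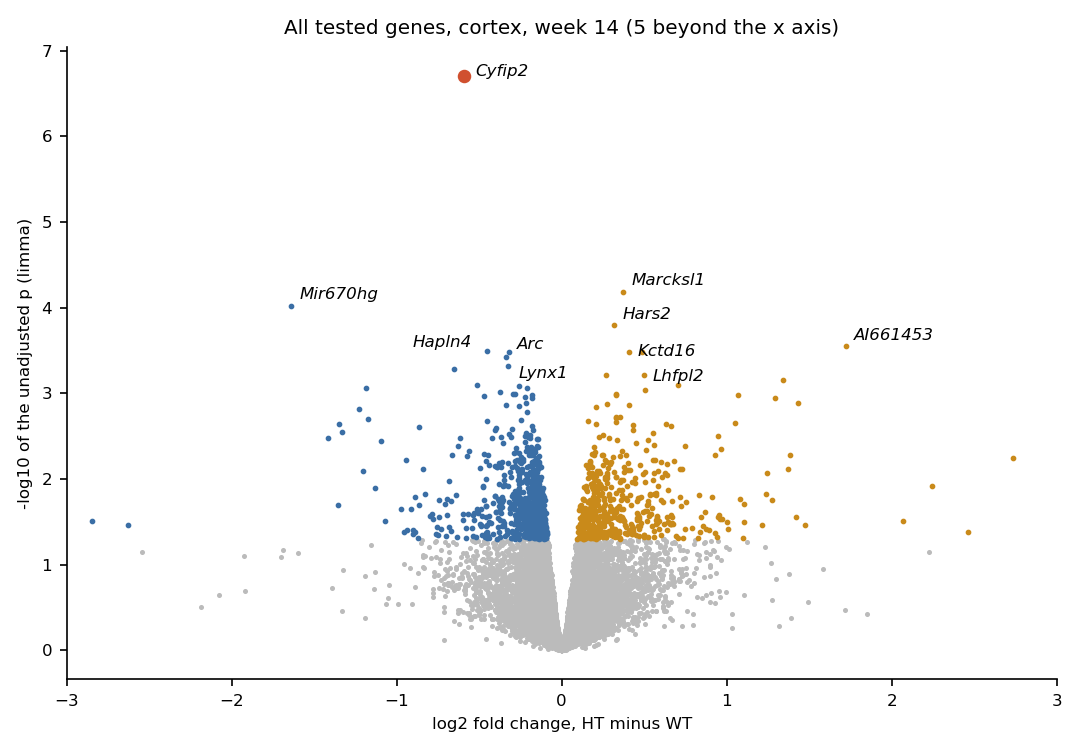
Log2 fold change (Cyfip2+/- minus WT, horizontal axis) against -log10 of the unadjusted limma p (vertical axis) for the genes tested, each point a gene. Cyfip2, at -0.59 with an adjusted p of 0.00332, is the only gene past the adjusted threshold, and the other labelled genes have adjusted p of 0.532 or more.

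The RNA of the other subunits of the WAVE regulatory complex was close to the WT level. The paralogue Cyfip1 (chr7:55841745-55932602) had 2487, 2514, 2553 and 2506 normalized counts in Cyfip2+/- mice and 2611, 2601, 2553 and 2672 in WT mice. The highest Cyfip2+/- mouse and the lowest WT mouse were level to within a count, and the log2 fold change was -0.05 (SE 0.04, limma adjusted p = 0.811). Brk1, the smallest subunit, had 4069, 3940, 4068 and 4062 in Cyfip2+/- mice against 4276, 4092, 4261 and 4221 in WT mice. All of its Cyfip2+/- values were below all of its WT values, but by a log2 fold change of -0.06 only (limma adjusted p = 0.768).

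Of the scaffold subunits that pair with CYFIP, Nckap1, the neuronal form, had a log2 fold change of -0.07 and Nckap1l, the form of blood cells and microglia, of -0.05. The WAVE genes themselves had log2 fold changes of -0.06 (Wasf1), 0.05 (Wasf2) and 0.06 (Wasf3). The adaptor genes Abi1 and Abi2 were at -0.01 and 0.01, and Abi3, which microglia express, was at 0.29 (limma adjusted p = 0.767). Of the 11 subunit genes tested, Cyfip2 alone had an unadjusted p below 0.05, 4 had a positive and 7 a negative fold change, and the median was -0.05 against -0.01 over all genes. In 3 of them (Cyfip2, Cyfip1 and Brk1) the genotypes did not overlap. The signs of Abi1, Abi2, Nckap1l, Wasf1 and Wasf2 turned under other scalings or when 1 or 2 libraries were left out.

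**Figure D3:**
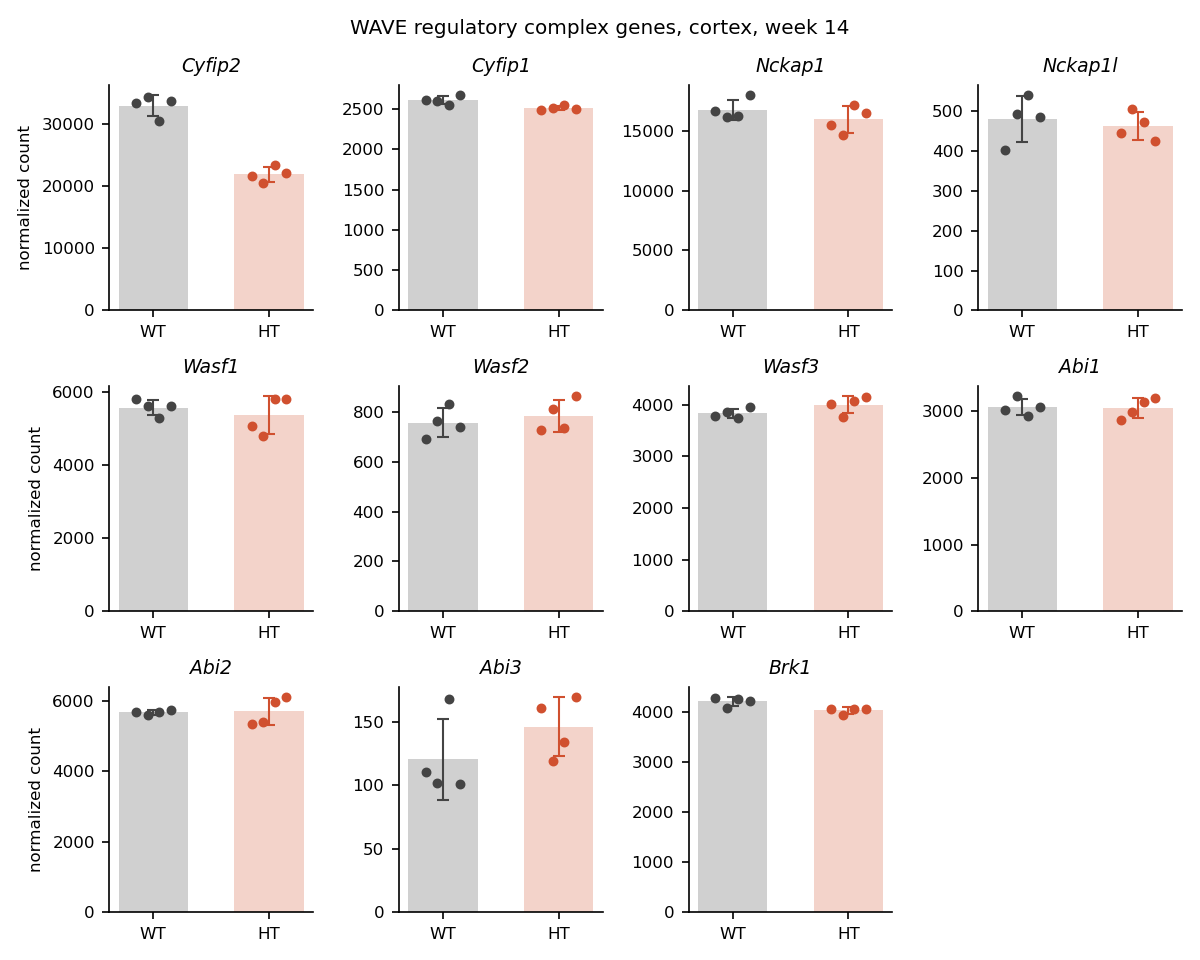
Normalized counts of the WAVE regulatory complex genes in the 4 WT and 4 Cyfip2+/- (HT) mice, with points for mice, and mean and SD per genotype. Cyfip2 is separated between the genotypes with means of 32898 and 21877, while the other subunits lie close together, Cyfip1 at 2609 and 2515.

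Around this complex, 35 genes of Rac signalling and branched actin (Rac GTPases, their exchange factors, Pak kinases, Arp2/3 subunits and cofilins) were tested. None was higher and 2 were lower at an unadjusted p below 0.05, 12 had a positive and 23 a negative fold change, and the median log2 fold change was -0.03. Git1, a scaffold that brings Pak and a Rac exchange factor to synapses, had 10445, 10044, 9918 and 9711 normalized counts in Cyfip2+/- mice and 10927, 11446, 11816 and 11282 in WT mice. Every Cyfip2+/- mouse was below every WT mouse (log2 fold change -0.18, SE 0.04, limma adjusted p = 0.569). Arpc5l, an Arp2/3 subunit, was at -0.11 (adjusted p = 0.698), and its start overlaps that of Rpl35 on the other strand. None of the 16 genes of FMRP and cytoplasmic RNA granules had an unadjusted p below 0.05, and their median was 0.01.

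Within 2 Mb of Cyfip2, 14 genes were tested, and 4 of them were lower at an unadjusted p below 0.05 and none was higher. Fndc9 (chr11:46235531-46239872) lies inside Cyfip2 on the plus strand, and none of its 31-base stretches occurs in the transcripts of another gene. It had 35.0, 21.2, 27.7 and 31.3 normalized counts in Cyfip2+/- mice against 30.9, 49.2, 143 and 73.0 in WT mice. The genotypes overlapped at WT mouse 1, and the log2 fold change was -1.13 (limma adjusted p = 0.664). Adam19, a membrane metalloprotease, was at -0.36 (adjusted p = 0.673) and Lsm11, a subunit of the histone mRNA processing particle, at -0.27 (adjusted p = 0.698). With Cyfip2 itself, 10 of the 14 genes had a negative fold change, with a median of -0.09. In the cortex of other mice at PWK 7, all 14 were negative.

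Immediate early genes, which neurons switch on within minutes of activity, had mostly negative fold changes. Of the 20 tested, 6 were lower (Arc, Fos, Ier2, Egr2, Ptgs2 and Egr3) and 2 higher (Jun and Nr4a2) at an unadjusted p below 0.05, against the background of 4.14% and 2.91%. A negative fold change was found for 18 of the 20, and the median log2 fold change was -0.17 against -0.01 over all genes. In bulk tissue, fewer cells of a type and less RNA per cell cannot be told apart.

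Arc (chr15:74669083-74672570), which drives the removal of AMPA receptors from synapses, had 12373, 11944, 14084 and 11045 normalized counts in Cyfip2+/- mice and 14657, 15346, 16024 and 16142 in WT mice. All of the Cyfip2+/- mice were below all of the WT mice, and mouse 3 was nearest to them (log2 fold change -0.33, SE 0.07, limma adjusted p = 0.569). Fos, a subunit of the AP-1 transcription factor, had 1443, 1583, 1621 and 1491 in Cyfip2+/- mice against 1928, 2088, 2140 and 1636 in WT mice. The genotypes did not overlap, with WT mouse 4 just above the highest Cyfip2+/- mouse (-0.34, SE 0.08, limma adjusted p = 0.589). Jun, the partner of Fos in AP-1, went the other way, with 1889, 1701, 1690 and 1863 in Cyfip2+/- mice and 1528, 1614, 1568 and 1403 in WT mice. All of its Cyfip2+/- values were above its WT values (0.22, SE 0.06, limma adjusted p = 0.646).

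The remaining immediate early genes at an unadjusted p below 0.05 were Ier2 at -0.40, Ptgs2 (the inducible cyclooxygenase) at -0.49, the zinc finger factors Egr2 and Egr3 at -0.38 and -0.23, and the nuclear receptor Nr4a2 at 0.32, as log2 fold changes. Their adjusted p from limma lay between 0.646 and 0.698. Among the 12 with larger p, Bdnf, the growth factor of activity-dependent plasticity, was at -0.22 (adjusted p = 0.728) and Npas4 at -0.18 (adjusted p = 0.725), while Nr4a3 was at -0.00 (adjusted p = 0.999). The genotypes did not overlap in 3 lower genes (Arc, Fos and Ptgs2) and in 1 higher gene (Jun). Over the leave-one-out fits the number of lower genes was between 4 and 9 and the median between -0.20 and -0.09, the latter without WT mouse 3. Without WT mouse 1 and Cyfip2+/- mouse 2, 6 were lower and 1 was higher, with a median of -0.19. Over all genes, 482 to 874 were lower in the leave-one-out fits, and 471 were lower and 328 higher without both of these libraries.

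In the hippocampus of mice with the same labels, 8 of the 20 genes were lower and none was higher at an unadjusted p below 0.05, with a median of -0.18. Over all genes tested there, 2.66% were lower and 2.69% higher, with a median of 0.00. In the cortex of other mice at PWK 7, 6 were lower and 1 was higher, with a median of -0.40. Over all genes at that age, 2.84% were lower and 2.34% higher, with a median of -0.01. None of the 20 had an unadjusted p below 0.05 for the difference of the genotype effect between regions or between PWK 14 and 7.

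**Figure D4:**
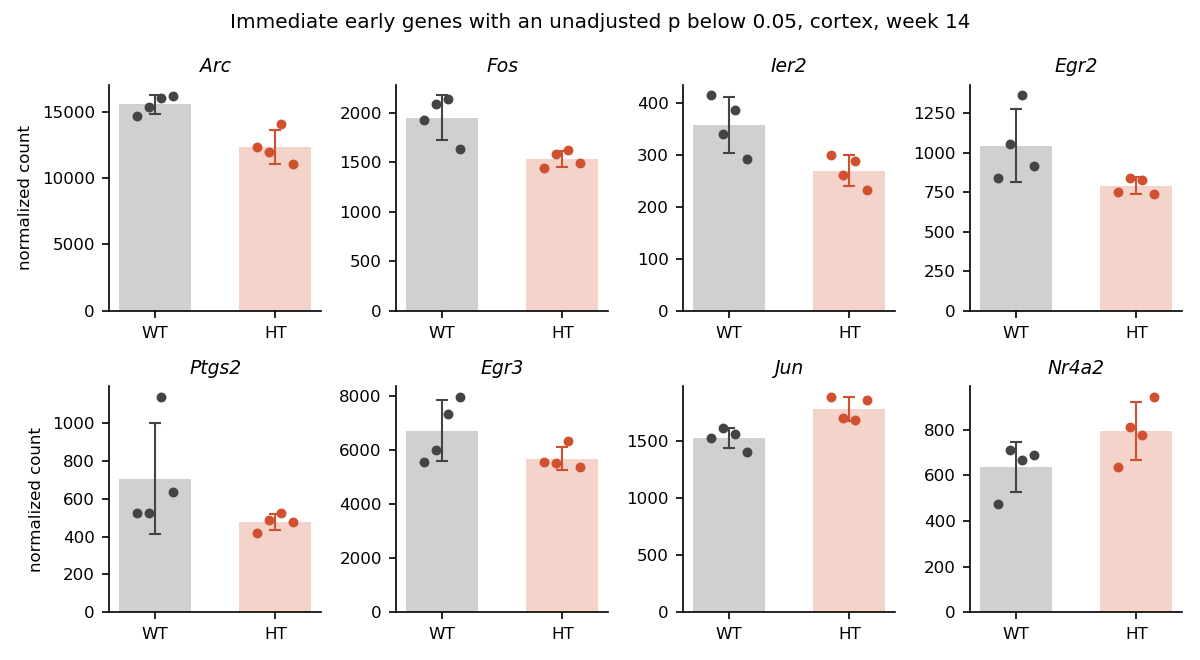
Normalized counts of the 8 immediate early genes with an unadjusted p below 0.05 in 4 WT and 4 Cyfip2+/- (HT) mice, with bars for the mean, error bars for the SD and points for mice. Arc and Fos are lower in all Cyfip2+/- mice (12362 and 15542 on average for Arc in Cyfip2+/- and WT mice), and Jun is higher in all of them.

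The promoters of these genes are read by factors that respond to activity. The core of the cAMP response element, the site of CREB, is TGACG, and it was searched on both strands in the 250 bases before the start of each gene in RefSeq (GRCm38.p6). Of the 20 genes, 15 had a promoter in the RefSeq table, which does not hold Arc, and 12 of the 15 (80.0%) held the core against 28.8% of 12183 tested genes with a promoter. The full element TGACGTCA, which contains the core, was in 2 of the 15 (13.3%, Btg2 and Dusp1) against 2.91%. A match to the serum response element was in 1 (6.67%, Egr2) against 1.45%, and the TATA box letters TATAAA on the strand of the gene were in 1 (6.67%, Fos) against 4.92%. The core is shown in capitals for the genes in that table that were higher or lower at an unadjusted p below 0.05 and held it, as a description of the windows and not of binding. CGTCA is the core on the opposite strand.
Fos, chr12:85473811-85473840, plus strand, 66 bases before the start: cagttccgcccagTGACGtaggaagtccat
Egr2, chr10:67537801-67537830, plus strand, 55 bases before the start: atatgggcagcgaCGTCAcgggtattgaag
Nr4a2, chr2:57124098-57124127, minus strand, 111 bases before the start: ctgacggggccgcTGACGcgcttggccgcg
Fos and Egr2 were lower and Nr4a2 was higher, and their windows are shown because they held the core. No window is shown for Arc, Ier2, Ptgs2, Egr3 and Jun.

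Next, the genes with the smallest unadjusted p in each direction were examined. Among those higher in Cyfip2+/- mice, Marcksl1 (chr4:129513581-129515985), an actin-binding substrate of protein kinase C, came first. It had 1736, 1712, 1818 and 1953 normalized counts in Cyfip2+/- mice and 1282, 1479, 1428 and 1389 in WT mice. The genotypes did not overlap, and the log2 fold change was 0.37 (SE 0.06, limma adjusted p = 0.532). Kctd16, an auxiliary subunit of GABA-B receptors, had 1079, 1091, 1176 and 1183 in Cyfip2+/- mice and 813, 928, 739 and 946 in WT mice. Here too all Cyfip2+/- mice were above all WT mice (0.41, SE 0.08, limma adjusted p = 0.559). Lhfpl2 had 950, 697, 678 and 837 in Cyfip2+/- mice and 515, 527, 613 and 566 in WT mice, with no overlap (0.50, adjusted p = 0.569). At PWK 7 in other mice, Lhfpl2 was at -0.28.

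Further genes on the higher side were Hars2, the mitochondrial histidyl-tRNA synthetase (0.32, adjusted p = 0.559), Col11a2, a fibrillar collagen (0.50, adjusted p = 0.569), Efcab2 (0.33, adjusted p = 0.569), Aanat (1.34, adjusted p = 0.569) and Hacl1, a peroxisomal lyase (0.71, adjusted p = 0.569), and in each of them the genotypes did not overlap. AI661453 was low but separated, with 28.5, 22.2, 26.0 and 15.96 normalized counts in Cyfip2+/- mice and 3.84, 7.80, 8.40 and 5.60 in WT mice (1.72, adjusted p = 0.559). Pabpc1l2a-ps, a pseudogene, was listed at 0 in 3 WT mice and at 23.97 in the other, against 26.3 to 69.5 in Cyfip2+/- mice. All of its 31-base stretches also occur in a second pseudogene, Pabpc1l2b-ps, so its level is uncertain.

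Among the genes lower in Cyfip2+/- mice, Mir670hg (chr2:94160636-94264918), a long noncoding RNA that hosts a microRNA, had the smallest p after Cyfip2. It had 47.1, 57.7, 51.7 and 119 normalized counts in Cyfip2+/- mice and 180, 304, 176 and 173 in WT mice. All Cyfip2+/- mice were below all WT mice, with mouse 4 well above the other 3 (log2 fold change -1.64, SE 0.28, limma adjusted p = 0.532). Hapln4 (chr8:70083457-70090862), a link protein of perineuronal nets, had 2715, 2156, 2717 and 2317 in Cyfip2+/- mice and 3490, 2893, 3523 and 3604 in WT mice. The genotypes did not overlap, and the nearest WT value was that of mouse 2 (-0.45, SE 0.09, limma adjusted p = 0.559). Lynx1 (chr15:74747852-74753046), a brake on nicotinic receptors that limits plasticity in the adult cortex, had 11576, 9830, 11628 and 10202 against 14052, 12818, 12643 and 14495. It too showed no overlap (-0.32, SE 0.07, limma adjusted p = 0.569).

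Other genes on the lower side were Pmepa1, an inhibitor of TGF-beta signalling (-0.32, adjusted p = 0.559), Vgll3, a transcription cofactor (-0.65, adjusted p = 0.569), Atf6, a sensor of protein folding stress in the endoplasmic reticulum (-0.26, adjusted p = 0.569), and Col17a1, a collagen of cell adhesion (-1.18, adjusted p = 0.569). In each of these the 4 Cyfip2+/- values lay below the 4 WT values. Eif4a-ps4, a pseudogene, was listed at 0 in 3 Cyfip2+/- mice and at 129 in mouse 2, against 178, 362, 753 and 416 in WT mice. Of its 31-base stretches 97.4% also occur in Eif4a1, a translation factor gene, so its level is uncertain.

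Genes of synapses and channels were examined in groups. Of 26 genes of synaptic vesicles and transmitter release, 6 were lower and none was higher at an unadjusted p below 0.05, 25 had a negative fold change, and the median log2 fold change was -0.11. Svop, a vesicle transporter-like protein, had 5209, 4704, 5217 and 5060 normalized counts in Cyfip2+/- mice and 5761, 5662, 6142 and 5792 in WT mice, with no overlap (-0.21, SE 0.05, limma adjusted p = 0.569). Syt12, a synaptotagmin, was at -0.45 (adjusted p = 0.646) and Slc17a7, the vesicular glutamate transporter of cortical neurons, at -0.17 (adjusted p = 0.673). Cyfip2+/- mouse 2, the library highest in striatal and oligodendrocyte genes, had the lowest summed level of this group, 449932 normalized counts, against 497894 to 526976 in the other Cyfip2+/- mice and 513475 to 544053 in WT mice. Without it 3 genes were lower and the median was -0.05, and without Cyfip2+/- mouse 3 13 were lower. Without WT mouse 1 and Cyfip2+/- mouse 2 together, 2 were lower and 21 of 26 were negative. Over all genes, 482 of 16772, 874 of 16801 and 471 of 16585 were lower in these fits in that order, against 700 of 16914 in the main fit. In what way tissue composition entered these values was not tested. In the hippocampus of mice with the same labels 5 of the 26 were lower, against 2.66% of all genes there, and none was higher (median -0.06). In the cortex of other mice at PWK 7 none was lower or higher (median -0.02).

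Of 28 potassium channel genes, 5 were lower and none was higher, 23 were negative, and the median was -0.08. Kcnh2, an ERG channel that damps repetitive firing, had 1026, 809, 827 and 996 normalized counts in Cyfip2+/- mice and 1151, 1218, 1239 and 1099 in WT mice. The genotypes did not overlap (-0.37, SE 0.08, limma adjusted p = 0.569). Kcnc2, a channel of fast-spiking interneurons, was at -0.24 (adjusted p = 0.646). The number of lower genes was 3 without Cyfip2+/- mouse 2, 8 without Cyfip2+/- mouse 3, 3 without WT mouse 1 and 2 without WT mouse 4. With quantile normalization it was 3 and the median was -0.06. Over all genes, 482, 874, 616, 574 and 598 were lower in these fits in that order, against 700 in the main fit. None of the 28 was lower or higher in the hippocampus of mice with the same labels, where 13 were positive and 15 negative (median -0.01). None was lower or higher in the cortex of other mice at PWK 7 either (median -0.01).

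Of 25 sodium, calcium and HCN channel genes, 11 had a positive and 14 a negative fold change, with a median of -0.02, and Cacna2d2, an auxiliary calcium channel subunit, was at -0.29. Of 22 glutamate receptor genes, 2 were lower (Grik4 at -0.26 and Grin1, the obligate NMDA receptor subunit, at -0.13) and 1 was higher (Grik2 at 0.20), with a median of -0.05. Of 22 genes of the postsynaptic scaffold, Nlgn1, an adhesion protein of excitatory synapses, was lower at -0.15, with a median of -0.02. Of 18 GABA receptor genes, Kctd16 was higher and Gabra3 lower at -0.15, with a median of -0.02. Of 10 genes of perineuronal nets, Hapln4 was lower and Hapln1, another link protein, was higher at 0.26 (adjusted p = 0.666), with a median of -0.06. Quantile normalization turned the sign of the medians of the GABA receptor, scaffold and sodium, calcium and HCN channel groups.

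**Figure D5:**
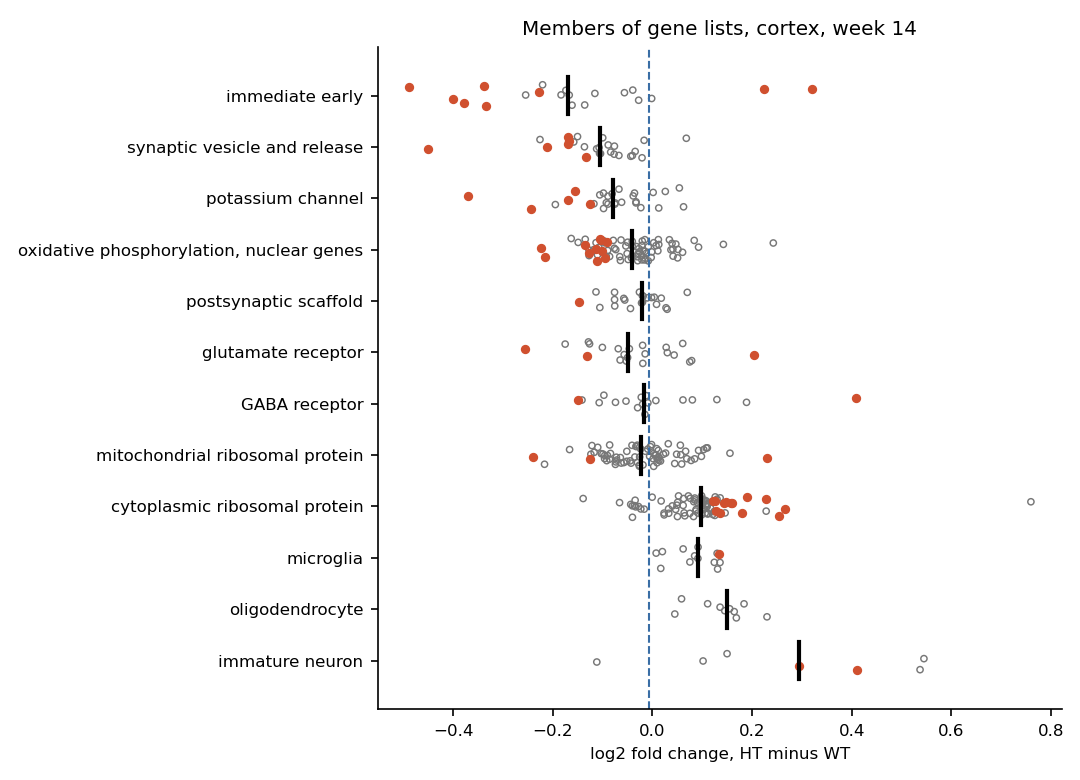
Log2 fold changes (Cyfip2+/- minus WT, horizontal axis) of the genes in 12 of the groups, with a point for each gene (filled at an unadjusted p below 0.05), a line at the group's median and a dashed line at the median of all genes. Among these 12 groups the medians run from -0.17 (immediate early) and -0.11 (synaptic vesicle) to 0.10 (cytoplasmic ribosomal protein), 0.15 (oligodendrocyte) and 0.29 (immature neuron).

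Genes of cytoplasmic ribosomal proteins had mostly positive fold changes. Of 81 tested, 13 were higher and none was lower at an unadjusted p below 0.05, 69 had a positive fold change, and the median log2 fold change was 0.10. Rpl27 had 1632, 1594, 1590 and 1570 normalized counts in Cyfip2+/- mice and 1354, 1446, 1294 and 1223 in WT mice, with no overlap (0.27, SE 0.06, limma adjusted p = 0.569). Rpl35 was at 0.25 (adjusted p = 0.646) and Rpl17 at 0.16 (adjusted p = 0.646). Many of these genes have processed pseudogenes, and 24.8% of the 31-base stretches of Rpl27, 32.9% of Rpl35 and 46.1% of Rpl17 occur in other genes. The count depended on single libraries. It was 5 without Cyfip2+/- mouse 2, 7 without Cyfip2+/- mouse 1, 34 without Cyfip2+/- mouse 3, 7 without WT mouse 1 and 8 without WT mouse 4, and it was 2, with a median of 0.03, without both Cyfip2+/- mouse 2 and WT mouse 1. Over all genes, 391, 474, 583, 458, 499 and 328 were higher in these fits in that order, against 493 in the main fit. The summed level of the ribosomal protein genes was highest in Cyfip2+/- mice 2 and 1, at 384275 and 359147, the same libraries that were highest in oligodendrocyte genes, against 320215 to 342166 in the other 6, and the part of those cells in it was not tested. In the hippocampus at PWK 14 none of the 81 was higher and 2 were lower (2.69% and 2.66% of all genes), with a median of -0.01.

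Nuclear genes of oxidative phosphorylation, the mitochondrial machinery that makes ATP, had mostly negative fold changes. Of 77 tested, 11 were lower and none was higher, 59 were negative, and the median was -0.04, against -0.01 over all genes. In 10 of them all Cyfip2+/- mice were below all WT mice. Their summed normalized counts were 241896 to 248753 in Cyfip2+/- mice and 252711 to 257556 in WT mice, without overlap. Cox5a, a subunit of cytochrome c oxidase, had 2381, 2161, 2447 and 2318 normalized counts in Cyfip2+/- mice and 2820, 2579, 2772 and 2693 in WT mice. Every Cyfip2+/- value was below every WT value (-0.22, SE 0.05, limma adjusted p = 0.569). Uqcrfs1, of complex III, was at -0.14 and Atp5g3, of the ATP synthase, at -0.11. The number of lower genes was 4 with quantile normalization, 5 without Cyfip2+/- mouse 2, 2 without Cyfip2+/- mouse 4, 6 without WT mouse 1, 6 without WT mouse 2 and 5 without WT mouse 4, and 4 without both Cyfip2+/- mouse 2 and WT mouse 1. Over all genes, 598, 482, 499, 616, 670, 574 and 471 were lower in these fits in that order, against 700 in the main fit. In the hippocampus of mice with the same labels 8 of the 77 were lower, against 2.66% of all genes there, and none was higher (median -0.06). In the cortex at PWK 7 5 were lower, against 2.84%, and none was higher (median -0.04).

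The other mitochondrial groups had fewer genes at an unadjusted p below 0.05. Of 77 genes of mitochondrial ribosomal proteins, 1 was higher (Mrpl14 at 0.23) and 2 were lower (Mrpl15 at -0.24 and Mrpl12 at -0.13), with a median of -0.02. In 6 of the 77 all Cyfip2+/- mice were below all WT mice and in 2 above, against 2.41% and 1.73% of all genes. Of the 13 protein genes of the mitochondrial genome, mt-Atp8 was higher at 0.37 (adjusted p = 0.688), with 21799 normalized counts in WT mouse 2 against 33864 to 40268 in the other WT mice and 38663 to 43956 in Cyfip2+/- mice, and the median was 0.05. Of 37 aminoacyl-tRNA synthetase genes, Hars2 was higher and Wars and Cars were lower, both by small amounts (-0.12 and -0.11), with a median of -0.02. The genotypes did not overlap in 3 genes of this group on the lower side and in 1 on the higher side.

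Markers of cell types differed little between the genotypes. Sox11 and Sox4, transcription factors of young neurons, were higher among 7 genes of immature neurons, which had a median of 0.29. Sox11 had 534, 534, 479 and 599 normalized counts in Cyfip2+/- mice and 343, 428, 446 and 398 in WT mice. The genotypes did not overlap (0.41, SE 0.10, limma adjusted p = 0.589). Dcx, the best known marker of migrating young neurons, was at 0.15 (adjusted p = 0.709), and the summed level of the group was 6414 to 7578 in Cyfip2+/- mice and 6491 to 8351 in WT mice, with overlap. Sox4 was at 0.29 (adjusted p = 0.673).

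Of 10 inhibitory neuron genes, Npy, a neuropeptide of cortical interneurons, was lower, with 1965, 2027, 1810 and 1735 in Cyfip2+/- mice and 2192, 2095, 2275 and 2183 in WT mice. It did not overlap (-0.22, SE 0.06, limma adjusted p = 0.646). The medians were -0.05 for inhibitory neurons, -0.07 for 8 genes of excitatory neurons, 0.06 for 5 of upper layers and 0.01 for 7 of deep layers, and among these 3 groups Slc17a7 alone had an unadjusted p below 0.05.

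Of 13 microglial genes, all had a positive fold change, with a median of 0.09 that ranged from 0.05 to 0.14 when a library was left out (0.05 without Cyfip2+/- mouse 2). None of 6 genes of activated microglia had an unadjusted p below 0.05 (median 0.08, from 0.02 to 0.17 when a library was left out). Astrocytes had 1 higher gene of 9, the gap junction gene Gja1 at 0.18 (median 0.05), and reactive astrocytes 2 lower of 7, Osmr at -0.47 and Serpina3n at -0.38 (median -0.02). All 10 oligodendrocyte genes were positive with none at an unadjusted p below 0.05, and their median of 0.15 became 0.02 without Cyfip2+/- mouse 2 and 0.31 without Cyfip2+/- mouse 3. In the cortex of other mice at PWK 7 all 10 were negative and 6 were lower, against 2.84% of all genes (median -0.11). In the hippocampus at PWK 14, 9 were negative and none was lower (median -0.05). Of 7 genes of oligodendrocyte precursors, Gpr17 and Neu4, which mark cells about to make myelin, were lower at -0.19 and -0.26 (median -0.07).

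No gene of endothelial cells, mural cells, meningeal fibroblasts, choroid plexus, ependyma, blood, or striatal, hippocampal or olfactory bulb neurons had an unadjusted p below 0.05. Their medians were 0.02, 0.04, 0.07, -0.59, 0.06, 0.37, 0.41, -0.51 and 0.33 in that order, and most of them moved with single libraries. The choroid plexus median became 0.43 without WT mouse 1, the striatal median 0.15 without Cyfip2+/- mouse 2 and 0.61 without Cyfip2+/- mouse 3, and the blood median 0.15 without Cyfip2+/- mouse 1. Over the leave-one-out fits the medians ranged from -0.56 to -0.29 for hippocampal and from -0.06 to 0.78 for olfactory bulb neurons, from 0.15 to 0.50 for blood and from -0.19 to 0.13 for ependyma. Those of endothelial cells, mural cells and meningeal fibroblasts took both signs, between -0.04 and 0.14. Hippocampal markers summed to 528 to 690 and olfactory bulb markers to 161 to 851 normalized counts per library. Of 4 Y-linked genes, Eif2s3y was lower at -0.37 (adjusted p = 0.698), with a median of 0.03.

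Pathways of metabolism and stress were close to the WT level. The 20 cholesterol synthesis genes had a median of -0.01, with 6 positive and 14 negative fold changes. Of 16 genes of lipid transport and storage, Plin2, which coats lipid droplets, was higher at 0.35 and Clu at 0.13 (median 0.05). Of 19 genes of the unfolded protein response, Atf6 was lower, with a median of 0.00. None of 8 heat shock genes (median -0.05) and none of 12 circadian clock genes (median 0.03) had an unadjusted p below 0.05.

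Of 57 clustered protocadherin genes, adhesion proteins that give neurons a surface identity, 3 were higher (Pcdhgb6 and Pcdha12 at 0.33, and Pcdhga11) and 2 were lower (Pcdhgb1 at -0.26, and Pcdhgc5), with a median of 0.11. Genes of a cluster share their last exons, so that 57.9% of the 31-base stretches of Pcdhgb6 and 64.1% of those of Pcdha12 occur in other genes, and their levels are uncertain. Of 43 collagen genes, 4 were higher (Col11a2, Col26a1, Col5a1 and Col14a1) and 2 were lower (Col17a1 and Col4a2), with a median of 0.02.

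To ask whether the genotype effect in the cortex at PWK 14 differed from that elsewhere, the difference between effects was tested. Against the hippocampus at the same age, no gene of 17669 passed an adjusted p of 0.05 (limma, smallest 0.652), and 552 (3.12%) had an unadjusted p below 0.05. The smallest p belonged to Gm44997, at 1.05 in the cortex and -0.63 in the hippocampus, followed by AI661453 and by Plxna3, a semaphorin receptor, which was at 0.04 in the cortex and 0.48 in the hippocampus. This fit treated cortex and hippocampus libraries with the same label as independent. When libraries of the same genotype and replicate number were blocked as 1 mouse, no gene passed either (limma, smallest adjusted p 0.513). Against the cortex at PWK 7, no gene of 17420 passed (smallest adjusted p 1.00), and 619 (3.55%) had an unadjusted p below 0.05. The smallest p belonged to Efcab2, Lhfpl2 and AI661453, at 0.33, 0.50 and 1.72 at PWK 14 and at -0.10, -0.28 and -0.01 at PWK 7. Both percentages are below the 5% that the threshold alone would give. Cyfip2 itself was at -0.59 in the cortex at PWK 14, at -0.56 in the hippocampus and at -0.57 in the cortex at PWK 7.

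When libraries of other ages or of the hippocampus were added to estimate each gene's variance, a few more genes passed the adjusted threshold for the same 8 mice. With the 24 cortex libraries these were Mir670hg (limma adjusted p = 0.0146) and AI661453 (0.0135) beside Cyfip2. With all 48 libraries they were Eif4a-ps4 (0.0122), Mir670hg, Lhfpl2, Cox5a and Sccpdh (0.0179 each) beside Cyfip2. Sccpdh had 2231, 2164, 2075 and 2120 normalized counts in Cyfip2+/- mice and 2367, 2757, 3702 and 2456 in WT mice, with WT mouse 3 far above the rest. Other genes described above lost the unadjusted threshold. With the 24 cortex libraries, Arc, Fos and Hapln4 had unadjusted limma p of 0.281, 0.181 and 0.0888, whereas Jun kept it (0.00245).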

How the data were processed

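Bulk RNA of the frontal cortex was sequenced as 101-base paired reads. The library kit was for total RNA according to the paper and for mRNA according to the labels. The deposited values are a signal: gene counts that the authors estimated with Salmon on GRCm38, imported with tximport and normalized with DESeq2. The submitters' processing notes give Salmon 0.11.2, R 3.6.0 and DESeq2 1.19.11, and the paper gives other versions. Values are not whole numbers, so tests of raw counts were not run. Their low values lay within 0.1 of whole multiples of a step in 34.6% to 87.0% of cases, which gives an approximate depth only and limits its precision.

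Samples were grouped by their labels. Log2 of the normalized count plus 1 was fitted with limma 3.58.1 (R 4.3.3, mean-variance trend, two-sided) on 8 libraries, for genes with at least 10 in at least 4 libraries, with Benjamini-Hochberg adjustment over all of these genes. On this scale the change of low genes is understated. Interactions used 16 libraries. Names and coordinates come from GENCODE vM21, which matched 18414 of 18428 identifiers and left 14. Shared sequence is the share of a gene's 31-base stretches found in other genes. Named genes were the WAVE complex, genes past the adjusted threshold, 12 with the smallest p in each direction (predicted Gm and Rik genes left out), up to 3 with p below 0.05 per list of 45, and up to 3 per interaction. Some genes selected by this rule are not reported here. Genes named beyond these were chosen after their values were seen. The groups, lists and rules were chosen with earlier results of these data known. Alternatives were other pseudocounts, filters, scalings, variance models, a replicate block, and leaving out libraries. The procedure was tested on simulated data.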

Additional observations from a re-analysis of the deposited data

Results flagged for a closer look

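Among the 4 libraries of each genotype, some values lay far from the other 3 by Dixon's criterion. It was applied to 258 groups of 4 values, of which chance alone would mark about 1 in 20 (12.9), and 19 were marked. Values are normalized counts unless another unit is named, and single libraries are given with the range of the other 3 of their genotype.

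Single genes in Cyfip2+/- mice were Mir670hg in mouse 4 (119 against 47.1 to 57.7), and Eif4a-ps4 in mouse 2 (129 against listed values of 0) and Brk1 in mouse 2 (3939.7 against 4062 to 4069). In WT mice they were Mir670hg (304 against 173 to 180), Hapln4 (2893 against 3490 to 3604) and Kcnc2 (2819 against 3273 to 3286) in mouse 2. In WT mouse 4 they were Pabpc1l2a-ps (23.97 against listed values of 0), Mrpl15 (819 against 701 to 711) and Hapln1 (652 against 566 to 579). In WT mouse 3 they were Wars (2745 against 2784 to 2792) and Abi3 (167 against 101 to 111).

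Summed levels of marker groups stood out in a few libraries. WT mouse 1 was at 29034 in choroid plexus genes against 150 to 395. WT mouse 3 was high in genes of immature neurons (8351 against 6491 to 6613), meningeal fibroblasts (3540.4 against 2041 to 2276), the olfactory bulb (777 against 161 to 231) and perineuronal nets (38440.0 against 35984 to 36338), and low in clustered protocadherins (30227 against 32147 to 32363). Cyfip2+/- mouse 4 was at 851 in genes of the olfactory bulb against 249 to 289. The estimated depth of Cyfip2+/- mouse 2 was 35.8 M read pairs against 28.3 to 29.2 M.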

How the results depend on the processing

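Cyfip2 kept its direction in all alternatives. Its adjusted p missed 0.05 with the replicate number as a block (log2 fold change -0.59, adjusted p 0.0983) and in 3 against 3 mice, without WT mouse 1 and Cyfip2+/- mouse 2 (-0.55, adjusted p 0.0520), a set chosen after seeing the data. Leaving out each library in turn gave -0.63 to -0.56, with adjusted p from 0.00221 to 0.0379. In limma the block also left 0 genes past the adjusted threshold and 1403 at an unadjusted p below 0.05. What the replicate number means is not stated in the labels. Deviations of Cyfip2+/- and WT mice of the same number correlated by 0.03, 0.09, 0.08 and -0.03, and those of different numbers by -0.10 to 0.11. Because these ranges overlap, they cannot show whether the numbers pair the mice. The number of genes past the adjusted threshold was 2 without a filter (Gm43302 added), 3 with 24 and 6 with 48 libraries, 0 in 3 against 3 (limma, 799 at an unadjusted p below 0.05), and 1 to 2 in the leave-one-out fits. It was 2 without Cyfip2+/- mouse 2 (Eif4a-ps4), Cyfip2+/- mouse 4 (Mir670hg), WT mouse 3 (Lrch1) or WT mouse 4 (Pabpc1l2a-ps). The count at an unadjusted p below 0.05 was 873 to 1457 and that without overlap 1038 to 1544 when a library was left out, where 3 mice overlap less easily than 4. Interactions with the region gave 0 to 1 gene when a library was left out (1 without Cyfip2+/- mouse 2 in the cortex), and with age 1 gene (Lhfpl2) with 48 libraries and 0 to 1 (1 without WT mouse 4 at PWK 14). The sign of the log2 fold change of Abi1 turned with median-of-ratios (0.000508) and quantile scaling (0.0103) and in the leave-one-out fits (-0.0286 to 0.0228), and in leave-one-out fits that of Abi2 (-0.0271 to 0.0361), Nckap1l (-0.134 to 0.00674) and Plxna3 (-0.0298 to 0.0904). In 3 against 3 it turned in Wasf1 (0.0133) and Wasf2 (-0.00926). The cause of these changes was not tested. Of the other results for named genes, 1587 kept direction and side of the threshold and 10 came to pass it, and of the medians of groups 669 moved by less than the spread between mice and 6 by more. With the 8 mice here, the median SE of a log2 fold change was 0.09, and the genes at an unadjusted p below 0.05 had a median size of 0.22, so differences of the size of the SE were not detectable for most genes. Differences several times the SE also missed the adjusted threshold. Marcksl1, at 0.37 with an SE of 0.06, had a limma adjusted p of 0.532. That a gene did not pass therefore does not show that it was unchanged.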

Other observations

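Some genes, most of them outside the groups above, had an unadjusted p below 0.05 in the cortex at all 3 ages, each in its own mice. Cyfip2 apart, there were 39 such genes, and 33 of them had the same sign at PWK 14, 7 and 1, 28 lower and 5 higher in Cyfip2+/- mice. For comparison, at PWK 14 and 7 alone there were 129 genes, 119 of them with the same sign, and at PWK 14 and 1 there were 272, 189 of them (69.5%) with the same sign. Over all 16629 genes tested at both PWK 14 and 7 the sign was shared by 57.5%. None of the 39 passed the adjusted threshold at PWK 14, and they were chosen by their values, so no test is attached to the counts. The share of all genes at an unadjusted p below 0.05 at PWK 1 was not counted, nor was the sign shared with PWK 1 over all genes. The counts that involve PWK 1 therefore have no background to be read against.

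Among the genes lower at all 3 ages, Nefh, the heavy neurofilament of thick axons, had log2 fold changes of -0.35, -0.17 and -0.27 at PWK 14, 7 and 1. Tnnc1, a troponin that binds calcium, was at -0.47, -0.48 and -1.20, and Myl4, a myosin light chain, at -0.40, -0.47 and -0.69. Tnnc1 had 335, 290, 366 and 345 normalized counts in Cyfip2+/- mice at PWK 14 and 467, 511, 380 and 501 in WT mice, without overlap. Hapln4 was at -0.45, -0.11 and -1.25, and Lynx1 at -0.32, -0.15 and -0.38.

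Also lower were Inf2, a formin that builds unbranched actin filaments (-0.21, -0.17 and -0.31), Rasgrp1, an activator of Ras (-0.17, -0.14 and -0.38), Gpd1, which links glycolysis to lipid synthesis (-0.20, -0.16 and -0.26), and the mitochondrial genes Ndufa10 (-0.22, -0.19 and -0.23) and Chchd10 (-0.14, -0.11 and -0.29). Higher at all 3 ages were Stmn4, a stathmin that binds tubulin (0.17, 0.16 and 0.26), Camk2n2, an inhibitor of CaMKII (0.16, 0.23 and 0.26), Scara3, Pcdhga11 and Syce2.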
